A study of Mus musculus with 11 samples.

Results

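The immediate early response genes Fos, Fosb, Jun, Junb, Egr1, Egr2, Egr3, Arc, Nr4a1 and Ier2 were examined in the newborn mouse nose. These are 10 of the 18194 genes that the array annotation names singly, measured by 13 of its 45101 probe sets, and every probe set that the platform annotation assigns to 1 of these symbols and to no other was taken. RNA came from the whole main olfactory epithelium (MOE), the sheet of the nose that holds the olfactory sensory neurons (OSNs), at postnatal day 0. There were 5 wild type (WT 1 to WT 5) and 6 Bcl11b KO preparations (KO 1 to KO 6), each on its own Affymetrix expression array. The KO mice carried a conventional Bcl11b knockout on both alleles, so that Bcl11b, a zinc finger transcription factor, was lost in every cell of the body and not in OSNs alone. All mice were labelled BALB/c, all wild type mice and 4 KO mice were male, and KO 3 and KO 6 were female. The labels name no stimulus for either group, so that the arrays show the level of these genes at dissection.

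Immediate early genes are switched on within minutes of a stimulus, by transcription factors that are already present in the cell, without new protein synthesis. Growth factors, depolarization of neurons, odorant stimulation, tissue injury and handling can each do so, mainly through the serum response factor, which binds the CArG box, and through CREB, which binds the cAMP response element. Most of the proteins are themselves transcription factors, which act on a later set of genes, and the messages are short-lived. Whole tissue was measured, so that fewer cells of a type and less RNA per cell cannot be told apart.

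Promoter sequences were available for 6 of the 10 genes in the RefSeq table of build GRCm38.p6 (Fos, Fosb, Jun, Junb, Egr2 and Nr4a1). Egr1, Egr3, Arc and Ier2 were not in it. Fos and Junb were picked from the 9 genes that stood highest on KO 1. Jun, Fosb and Nr4a1 stood highest there too, and Fosb and Nr4a1 are not shown. Jun and Egr2 were picked because their estimates lay farthest apart in KO against wild type. The 250 bases before the transcription start are shown for Fos, Jun, Junb and Egr2. Each is written from 5′ to 3′ on the strand of its gene, and capitals mark the CArG box, the letters TGACG, which form one side of the cAMP response element, and TGACATCA, the AP-1-like element known from the human JUN promoter. The windows lie at chr12:85473640-85473889 (plus strand), chr4:95052223-95052472 (minus strand), chr8:84978749-84978998 (minus strand) and chr10:67537619-67537868 (plus strand).
Fos: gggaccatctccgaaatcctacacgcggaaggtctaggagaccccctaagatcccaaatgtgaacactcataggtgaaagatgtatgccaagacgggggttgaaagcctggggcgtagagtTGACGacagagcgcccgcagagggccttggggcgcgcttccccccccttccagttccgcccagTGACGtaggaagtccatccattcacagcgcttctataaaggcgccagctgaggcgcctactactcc
Jun: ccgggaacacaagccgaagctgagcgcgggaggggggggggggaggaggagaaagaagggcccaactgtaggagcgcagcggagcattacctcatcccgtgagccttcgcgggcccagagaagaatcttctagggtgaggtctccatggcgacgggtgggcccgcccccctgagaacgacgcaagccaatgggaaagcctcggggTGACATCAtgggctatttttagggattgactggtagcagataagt
Junb: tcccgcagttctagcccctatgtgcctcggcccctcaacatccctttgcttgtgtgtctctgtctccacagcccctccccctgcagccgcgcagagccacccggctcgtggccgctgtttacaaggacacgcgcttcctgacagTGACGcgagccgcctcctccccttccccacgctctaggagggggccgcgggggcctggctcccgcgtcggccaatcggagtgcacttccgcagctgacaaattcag
Egr2: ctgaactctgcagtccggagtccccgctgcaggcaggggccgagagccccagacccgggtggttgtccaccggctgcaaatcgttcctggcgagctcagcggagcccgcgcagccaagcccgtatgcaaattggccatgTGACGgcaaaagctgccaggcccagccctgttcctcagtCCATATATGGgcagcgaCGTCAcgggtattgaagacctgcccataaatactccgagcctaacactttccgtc
Both strands were searched, and the motifs shared no bases in these windows. TGACG began 129 and 66 bases before the start of Fos and 106 bases before that of Junb. TGACATCA began 45 bases before the start of Jun. The window of Egr2, 1 of 5 listed starts, was chosen because it holds both the CArG box and TGACG. In it the CArG box began 72 bases before the start. TGACG lay 111 bases before the start on the gene's strand and 55 bases before it on the other. Another listed start of Egr2 had 0 matches, and another had the CArG box alone. A gene was counted if any of its listed starts had the motif. TGACG was present for 5 of the 6 genes (all but Jun) and in 7 of their 10 windows. Its share of all 32851 promoter windows of the same length was 17.8%. The CArG box, searched as CC, then 6 bases of A or T, then GG, was present for 1 of the 6 (Egr2). It lay in 4 of the 10 windows, all of Egr2, and in 1.47% of all windows. TGACATCA was present for 1 (Jun), in 1 of the 10 windows and in 2.93% of all windows. Sites farther than 250 bases before the start, or with other letters, were not searched, so that no absence of such sites follows.

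The arrays gave signals that the authors had scaled so that 1 GAPDH probe set read 10000 on each of them, and changes are given on the scale of log2(signal + 16) as KO minus wild type. Bcl11b, the targeted gene, was lower on all 4 of its tested probe sets, and on the brightest of them it read 2694 to 4123 in wild type and 560 to 1250 in KO (-1.88 ± 0.17, SE; limma, adjusted p = 1.20e-05). Median signals of the arrays were 56.6 to 85.7 in wild type and 62 to 86.5 in KO. The GAPDH 3'/5' ratio, which grows as RNA degrades or is copied incompletely, was 1.88 to 2.27 in wild type and 1.82 to 2.70 in KO, where KO 3 (2.70) and KO 2 (2.42) exceeded all wild type arrays. For the spiked hybridization controls the log2 difference was 0.19, KO above wild type, with p = 0.0173 in a two-sided exact permutation test. The poly-A spike controls, added before labelling, ran from 7.87 to 9.02 on the log2 scale. They were cut at their largest gap (0.29, between 8.31 and 8.60) into 5 arrays of higher signal (WT 1 and 2, KO 4, 5 and 6) and 6 of lower signal. Such a cut always gives 2 sets, which are inferred from these values alone. The labels name no labelling batch. Among cell type markers, 5 of 9 tested mature OSN markers fell (summed signals 13138 to 17412 in wild type and 7626 to 10527 in KO), first by p Stoml3 (-1.21 ± 0.16; limma, adjusted p = 7.94e-04) and Cnga4 (-1.04 ± 0.17; adjusted p = 0.00468). Of the 4 tested erythroid markers, 2 rose, the embryonic globins Hbb-y (2.19 ± 0.21) and Hbb-bh1 (2.0 ± 0.29; limma, adjusted p = 2.78e-05 and 0.00203; summed signals 819 to 1255 and 1260 to 1710), and no marker of immature OSNs, endothelium, fibroblasts, macrophages, basal or sustentacular cells passed the test. The basal marker Krt15, 1 of 5 tested, was lower in KO without overlap of the arrays but did not pass (-1.22 ± 0.32; limma, adjusted p = 0.134). The other basal markers overlapped.

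No immediate early gene differed between Bcl11b KO and wild type at the threshold of the whole-array test. All 13 probe sets passed the filter on low signal (mean of at least 20), and 0 of 13 were called by limma at an adjusted p under 0.05, against 153 of 33662 tested probe sets (0.455%). The 2 genes with the farthest estimates were Jun, which was higher in KO, and Egr2, which was lower. Both probe sets of each had an unadjusted limma p under 0.05, which makes 4 of 13, against 6.92% of all tested probe sets. For none of the 13 did the arrays of the 2 groups separate, against 1.29% of all tested. The estimate was above 0 for 8 probe sets and below 0 for 5, and its median over the 10 genes, each by its brightest probe set, was 0.086, against 0.047 over all tested probe sets.

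**Figure D1:**
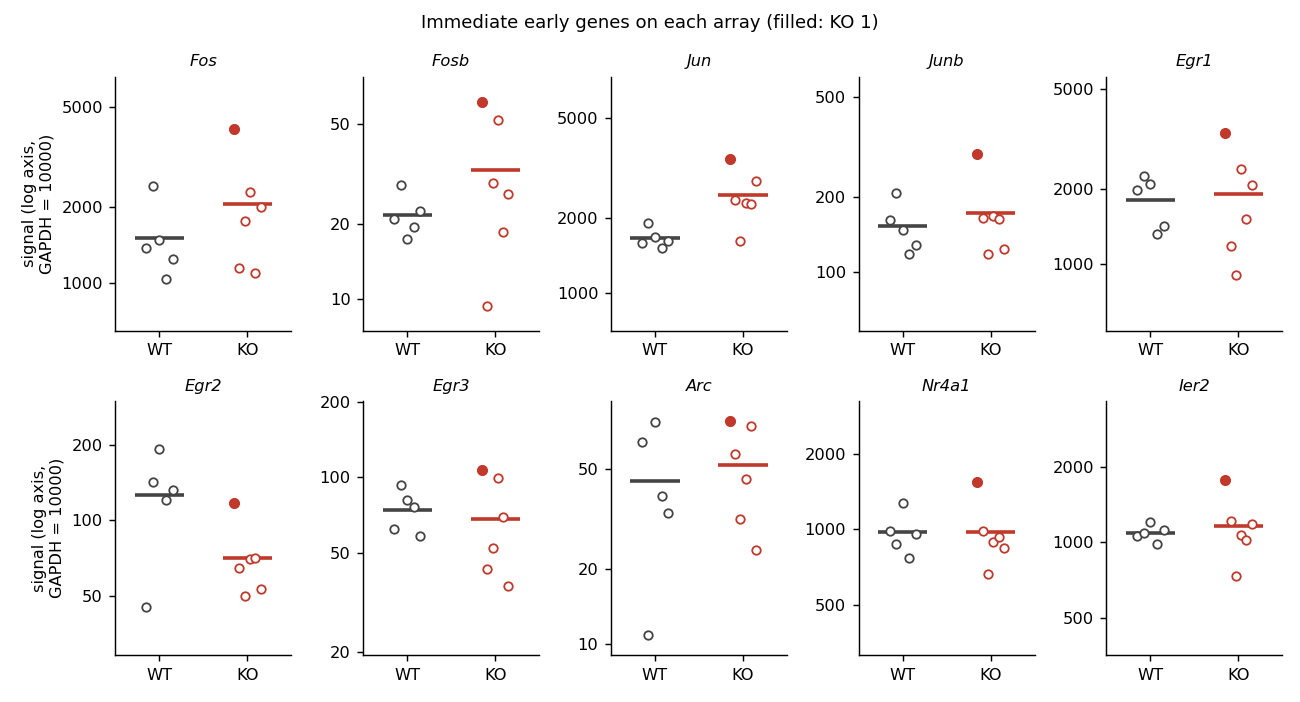
Deposited signal (log axis, GAPDH set to 10000) of the 10 immediate early genes, by the brightest probe set of each, on 5 wild type and 6 Bcl11b KO arrays. Circles are arrays, lines are group means and the filled circle is KO 1, which was the highest array for 9 of the 10 genes, all but Egr2.

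The AP-1 factors come first. Fos encodes the partner that forms AP-1 with Jun proteins and is the classic marker of recent activity in neurons. Its signals were 1381, 2420, 1483, 1035 and 1244 in WT 1 to WT 5. In KO its lowest signal was 1092, the median 1888 and the highest 4109. KO 1 alone stood above every wild type array, and the other 5 KO arrays lay within the wild type range. The change was 0.36 ± 0.28 (SE; 95% interval -0.23 to 0.95; limma, adjusted p = 0.936), and without KO 1 it was 0.13 ± 0.23. It was 0.70 within the arrays of lower poly-A controls and -0.091 within those of higher ones. Fosb, a second Fos protein, was dim (mean signal 27.8). It read 17.4 to 28.6 in wild type and 9.4 to 61.4 in KO, where KO 1 (61.4), KO 4 (51.8) and KO 3 (29) stood above the wild type arrays and KO 2 below them. The change of 0.27 ± 0.26 did not pass the test (limma, adjusted p = 0.959).

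Jun, the partner of Fos, which can also drive its own promoter, read 1580.0, 1911, 1673, 1509 and 1617 in WT 1 to WT 5. Its lowest, median and highest signals in KO were 1622, 2318 and 3417. The KO arrays were higher except for KO 3, which at 1622 lay among the wild type arrays, so that 5 of 6 exceeded the highest wild type array. The change was 0.53 ± 0.15 (SE; 95% interval 0.22 to 0.85), a ratio of 1.45 (1.16 to 1.80), with an unadjusted limma p of 0.00234 and an adjusted p of 0.196. The second Jun probe set read 760.6 to 1009 in wild type and 887.6 to 2511 in KO, again with 5 of 6 KO arrays on top (0.61 ± 0.20; limma, adjusted p = 0.345). The 2 probe sets followed each other over the 11 arrays (r = 0.92, rho = 0.96, permutation p = 5.00e-05 and 2.00e-05, adjusted over 3 such pairs 1.50e-04 and 6.00e-05, r = 0.86 without the 2 arrays farthest from the median).

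Whether Jun was called depended on the setting, among others on KO 3, the array of highest GAPDH 3'/5' ratio. Without KO 3 the brighter probe set changed by 0.64 ± 0.12 and passed (limma, adjusted p = 0.0201). It also passed without both KO 2 and KO 3 (0.68 ± 0.12, adjusted p = 0.0176), with array weights (0.61 ± 0.12, adjusted p = 0.0191) and with the GAPDH 3'/5' ratio as a covariate, an alternative chosen after the data had been seen (0.57 ± 0.11, adjusted p = 0.0248). KO 3 held the lowest Jun signal in KO, so that leaving it out raises the estimate by itself. The passes without KO 3 are therefore not separate support for a change. Array weights and the covariate kept KO 3 in the fit but reuse the same arrays, so that those passes are not separate support either. With males only it was 0.62 ± 0.13 (adjusted p = 0.0504), without KO 1 0.43 ± 0.14 (adjusted p = 0.360), and with the spiked hybridization controls as the scale 0.34 ± 0.14 (adjusted p = 0.313). Within the arrays of higher and of lower poly-A controls the change was 0.48 and 0.55. The second Jun probe set passed in none of 28 alternatives (lowest adjusted p 0.102).

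Junb, a Jun protein that can dampen the action of Jun, read 118.9 to 206.5 in wild type. In KO its median was 164, and KO 1 stood alone at 297.9 above the other 5 arrays, which read 118.3 to 167.8. The change was 0.12 ± 0.21 (95% interval -0.31 to 0.56), and without KO 1 it was -0.034 ± 0.18.

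The EGR zinc finger factors followed. Egr1, whose promoter in other tissues answers to serum response factor, read 1972, 2252, 2093, 1321 and 1419 in WT 1 to WT 5. Its lowest, median and highest signals in KO were 911.1, 1799 and 3334. KO 1 (3334) and KO 4 (2392) lay above the wild type range, KO 2 (1187) and KO 3 (911.1) below it, and KO 5 and KO 6 inside it. The change was -0.029 ± 0.26 (95% interval -0.58 to 0.52; limma, adjusted p = 0.997). Its spread within the groups, an SD of 0.56 on the log2 scale, was larger than that of 92.8% of tested probe sets, and that of Fos (0.60) was larger than 95.3%.

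Egr2, which in Schwann cells directs myelination, read 45.1, 141.8, 191.8, 120.1 and 131.8 in WT 1 to WT 5. In KO it read 49.9 at the lowest, 67.2 at the median and 116.7 at the highest. All 6 KO arrays lay below the wild type median of 132, but WT 1 was lower than every KO array. The change was -0.65 ± 0.26 (95% interval -1.2 to -0.089; limma, adjusted p = 0.589). On the second probe set WT 1 (60.3) was again the lowest wild type array, 4 of 6 KO arrays (44.1 to 56.8) lay below it, and the change was -0.81 ± 0.24 (95% interval -1.33 to -0.30; limma, adjusted p = 0.263). The estimate stayed below 0 for both probe sets under every alternative run, between -0.92 and -0.29 for the first and between -1.03 and -0.56 for the second, and passed in none (lowest adjusted p 0.0988 and 0.0703). The 2 probe sets moved together over the arrays (r = 0.88, rho = 0.70, permutation p = 0.0014 and 0.0203, adjusted over 3 pairs 0.0021 and 0.0304, r = 0.80 without the 2 farthest arrays). Mature OSN markers were lower on the same arrays, and their part in the Egr2 values was not tested.

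Egr3, a relative of Egr1 that is induced with it, gave no common picture. Its brighter probe set read 58.2 to 92.8 in wild type and 36.8 to 106.4 in KO (-0.16 ± 0.23). Its dimmer one read 13.1 to 50.1 and 16 to 49 (0.076 ± 0.26). These 2 probe sets did not follow each other over the arrays (r = -0.27, rho = -0.30, permutation p = 0.416 and 0.370, which also are the adjusted values, r = -0.46 without the 2 farthest arrays).

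Nr4a1, an orphan nuclear receptor, read 771.8 to 1279 in wild type, and in KO 664 to 985.6 apart from KO 1 at 1540 (-0.024 ± 0.18, 95% interval -0.40 to 0.36). Arc, whose protein acts at synapses, was dim and scattered in both groups, at 10.9 to 76.9 and 23.7 to 77.3 (0.21 ± 0.30). Ier2, a nuclear protein of less well known action, read 979.3 to 1209 in wild type and 730.8 to 1211 in KO apart from KO 1 at 1770 (0.048 ± 0.17, 95% interval -0.31 to 0.40). The adjusted p of Junb, Egr3, Arc, Nr4a1 and Ier2 was 0.978 to 0.997 by limma, and the intervals of Junb, Egr1, Nr4a1 and Ier2 leave room for changes in either direction. Under the other 3 scalings Ier2 turned to below 0 in each and Junb in 1, while Jun, Fos, Fosb and Arc stayed above 0 and Egr2 below.

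**Figure D2:**
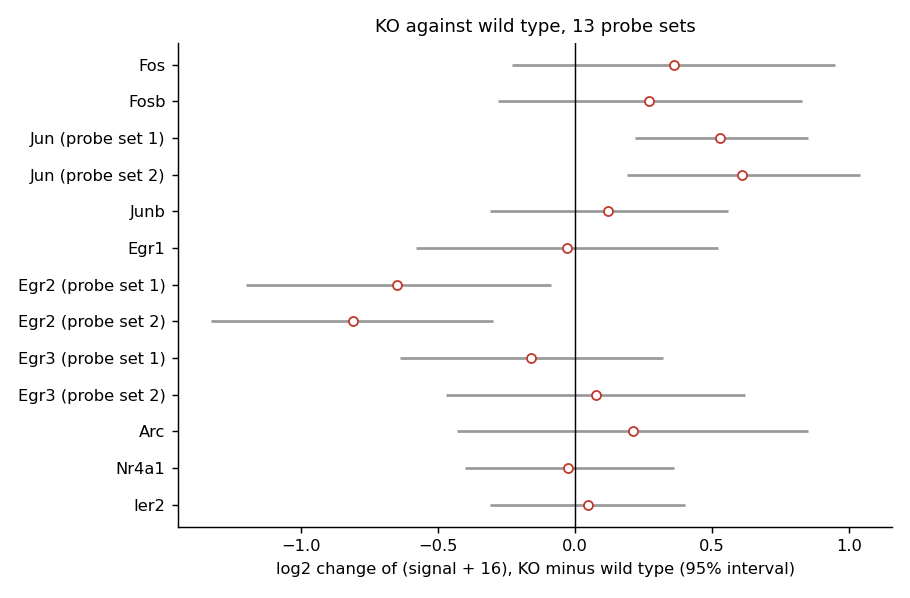
Change of log2(signal + 16), KO minus wild type, with 95% limma intervals for the 13 probe sets, the brighter probe set of a gene first. The intervals of both Jun probe sets lay above 0 and those of both Egr2 probe sets below, the other 9 crossed 0, and none of the 13 passed after adjustment over 33662 probe sets.

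Much of the variation of these genes lay between arrays of the same group. KO 1 was the highest of the 11 arrays for 9 of the 10 genes, all but Egr2, whereas it was the highest for 10.2% of all tested probe sets. KO 3 was the lowest array for 4 of the 10 (Junb, Egr1, Nr4a1 and Ier2), against 28.1% of all tested probe sets. The mean level over the 10 genes, on the log2 scale, averaged 8.4 in the 5 wild type preparations (SD 0.17) and 8.47 in the 6 KO preparations (SD 0.40). It was 9.20 on KO 1, 8.06 on KO 3, 8.24 to 8.63 on the other KO arrays and 8.22 to 8.62 in wild type. KO 1 thus stood above all 10 others, and no p was computed for this mean.

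**Figure D3:**
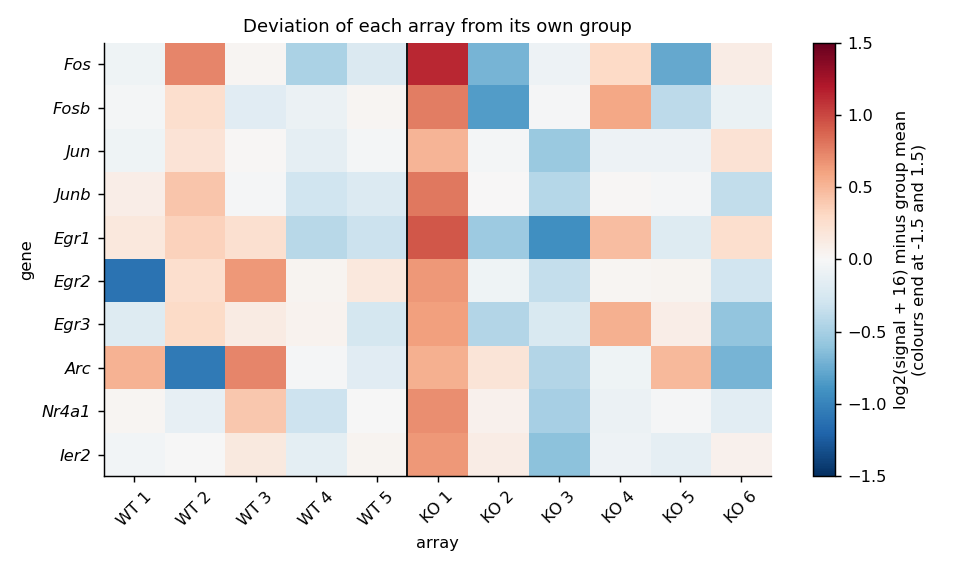
Deviation of each array (columns) from the mean of its own group, in log2(signal + 16), for the 10 immediate early genes (rows), with red for higher and blue for lower. All 10 genes were above the KO mean on KO 1 and below it on KO 3, where the mean deviations were 0.73 and -0.41.

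Over the 45 pairs of genes the median Pearson r across the 11 arrays was 0.48, and 41 pairs had an r above 0. The median over all pairs of tested probe sets was 0.20. For the 6 genes with a mean signal of at least 100 (Fos, Jun, Junb, Egr1, Nr4a1 and Ier2), the 15 pairs had a median r of 0.69, against 0.28 over all pairs of probe sets of that brightness. These figures rested largely on KO 1. Without that array the median was 0.24 against 0.21 for all pairs, and 0.38 against 0.30 for the brighter ones. Within the arrays of higher poly-A controls, which do not include KO 1, the median over the 45 pairs was 0.14.

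Of the 45 pairs, 2 passed a permutation test after Benjamini-Hochberg adjustment by r and 0 passed by rho (17 and 8 at an unadjusted p under 0.05). Fos and Fosb had r = 0.87 (permutation p = 2.00e-04, adjusted p = 0.009) and rho = 0.80 (permutation p = 0.00438, adjusted p = 0.119). The r was 0.80 without the 2 arrays farthest from the median of Fos, 0.76 without KO 1, where it no longer passed (permutation, adjusted p = 0.174), 0.74 within wild type and 0.91 within KO. Within the arrays of higher and of lower poly-A controls it was 0.75 and 0.91. Nr4a1 and Ier2 had r = 0.90 (permutation p = 5.90e-04, adjusted p = 0.0133) and rho = 0.75 (permutation p = 0.0113, adjusted p = 0.119). That r was 0.61 without the 2 farthest arrays, 0.78 without KO 1 (permutation, adjusted p = 0.286), 0.89 without WT 4 (adjusted p = 0.0652), 0.86 without both KO 2 and KO 3 (adjusted p = 0.0634), 0.92 within wild type and 0.95 within KO. It was 0.94 within the 6 arrays of lower poly-A controls and -0.76 within the 5 of higher ones. Neither value passed within so few arrays (permutation, adjusted p = 0.0957 and 0.781), so that the relation was not seen in both sets. Of the single genes, Egr1 followed the mean of the other 9 most closely (r = 0.84, and 0.77 without KO 1), and Arc least (0.16, and -0.13).

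Each gene was also set against 4 measures of the array, which made 40 relations. These measures were the median signal, the GAPDH 3'/5' ratio, the poly-A control level and the mean level of 12 heat shock genes. The last was read as an RNA level and not as a measure of stress in the tissue. By r, 3 relations passed (7 at an unadjusted p under 0.05), and by rho 2 passed (5 unadjusted). Egr1 was lower on arrays with a higher GAPDH 3'/5' ratio, with r = -0.94 (permutation p = 1e-05, the smallest that 100000 resamples give, adjusted p = 4.00e-04) and rho = -0.97 (permutation p = 2.00e-05, adjusted p = 8.00e-04). The order ran from KO 1, with a ratio of 1.82 and an Egr1 signal of 3334, to KO 3, with a ratio of 2.70 and a signal of 911.1. The r was -0.94 without the 2 arrays farthest from the median ratio, -0.89 within wild type, -0.96 within KO, and -0.81 and -0.95 within the arrays of higher and of lower poly-A controls. All 10 members had an r below 0 with this ratio (median -0.53). The median over all tested probe sets was -0.33, and 13 of 33661 probe sets (0.0386%), Egr1 among them, had an r as low as that of Egr1. With the ratio as a covariate the KO change of Egr1 was 0.062 ± 0.11 (limma, adjusted p = 0.919), against -0.029 ± 0.26 without it.

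Jun was higher on arrays with more heat shock RNA, with r = 0.86 (permutation p = 4.90e-04, adjusted p = 0.0098) and rho = 0.90 (permutation p = 3.30e-04, adjusted p = 0.0066). The heat shock mean was 11.16 to 11.32 in wild type, 11.39 to 11.69 on 5 KO arrays and 10.89 on KO 3, the only KO array whose Jun signal lay in the wild type range. The r was 0.72 without the 2 farthest arrays, 0.67 within wild type, 0.94 within KO, and 0.95 and 0.83 within the arrays of higher and of lower poly-A controls. It was 0.68 with the hybridization controls as the scale and 0.74 after quantile normalization, where it did not pass (permutation, adjusted p = 0.226 and 0.124). An r as high was found for 234 of 33661 probe sets (0.695%). Ier2 had r = 0.85 with the heat shock mean (permutation p = 0.00201, adjusted p = 0.0268) and rho = 0.74 (permutation p = 0.0137, adjusted p = 0.183), and the r was 0.59 without the 2 farthest arrays, 0.83 within wild type, 0.89 within KO, and 0.76 and 0.97 within the 2 poly-A sets. The relation of Ier2 no longer passed without WT 4, KO 1, KO 2 or KO 3 (permutation, adjusted p = 0.082, 0.0577, 0.0515 and 0.0775), in males only (0.0866), after quantile normalization (0.0538) or without both KO 2 and KO 3 (r = 0.73, adjusted p = 0.135). No heat shock gene passed the KO test itself, and those of smallest p were Hspa1b, an inducible Hsp70 gene, at 0.51 ± 0.25 (limma, adjusted p = 0.754), and Hsp90aa1, an Hsp90 gene, at 0.18 ± 0.092 (adjusted p = 0.790). The part of the heat shock level and of the GAPDH ratio in the values of these genes was not tested.

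**Figure D4:**
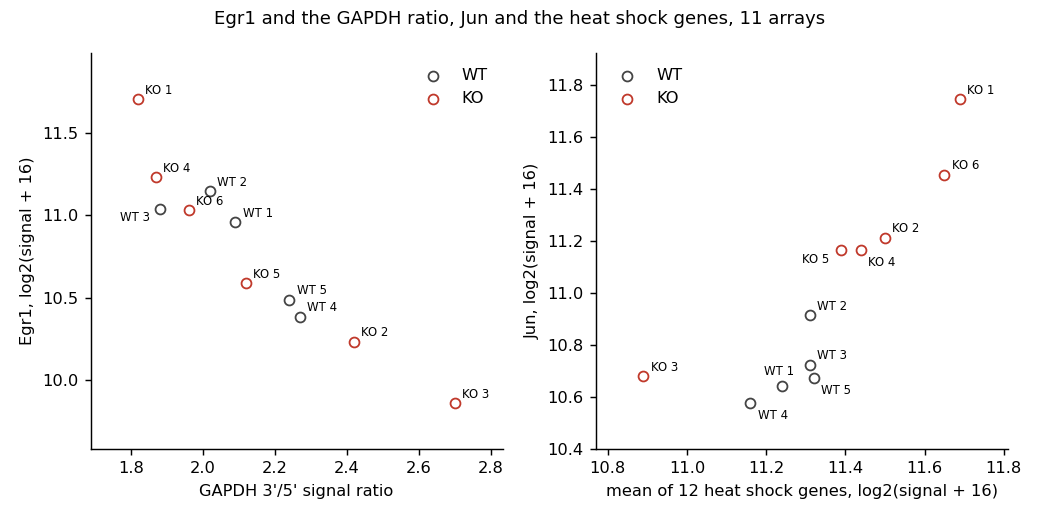
Left, log2(signal + 16) of Egr1 against the GAPDH 3'/5' signal ratio. Right, log2(signal + 16) of Jun against the mean log2(signal + 16) of 12 heat shock genes. Points are the 11 arrays. Egr1 falls along the ratio in both groups (r = -0.94), and KO 3 lies apart from the other KO arrays on the right (heat shock mean 10.89).

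The genes around the response were described next, from lists chosen with earlier results of these data known. Of 34 later and delayed early genes, 31 were tested, of which 2 rose, 0 fell and 29 did not pass. The median change was 0.18. Cebpd, a C/EBP factor induced by cytokines and glucocorticoids, read 1361, 978.8, 1094, 1378 and 870.3 in WT 1 to WT 5. In KO it read 2040.4 at the lowest, 2439 at the median and 3093 at the highest, with no overlap. Its change was 1.14 ± 0.15 (95% interval 0.83 to 1.45; limma, adjusted p = 5.13e-04), and the adjusted p was 3.31e-04 to 0.00287 when any 1 array was left out. Fosl2, which encodes the Fos relative Fra-2, read 628.5, 640.2, 459, 543.2 and 575 in WT 1 to WT 5. In KO its lowest, median and highest signals were 831.6, 1148 and 1346, again with no overlap. It rose by 0.93 ± 0.15 (95% interval 0.62 to 1.24; limma, adjusted p = 0.00375, and 9.38e-04 to 0.0216 with any 1 array left out). Each of the 2 genes had a second, dim probe set with overlapping groups that did not pass (0.16 ± 0.24 for Cebpd and 0.37 ± 0.24 for Fosl2; limma, adjusted p = 0.980 and 0.897).

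Neither gene was led by KO 1. Cebpd was highest on KO 3 and Fosl2 on KO 5, and with group means subtracted their r with the mean of the 10 immediate early genes was 0.11 and 0.36. Nr4a3, the relative of Nr4a1, read 542 to 715.9 in wild type and 157.2 to 465.4 in KO. Its arrays did not overlap, and its change of -1.0 ± 0.22 missed the threshold (95% interval -1.47 to -0.54; limma, adjusted p = 0.0553). Leaving out KO 2, 3 or 6 brought it under the threshold (adjusted p = 0.0385, 0.0388 and 0.0352), and leaving out WT 3 took it to 0.18. Maff, a small Maf factor, was the fourth gene of the list without overlap, at 197.9 to 249.9 and 259.1 to 652.9 (0.73 ± 0.19; limma, adjusted p = 0.120). Counted by the brightest probe set of each gene, 3 of 31 genes separated upward and 1 downward. The shares over all tested probe sets, dim ones included, were 0.716% and 0.573%. As the list was chosen with earlier results of these data known, these counts are a description, and no excess can be read from them.

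**Figure D5:**
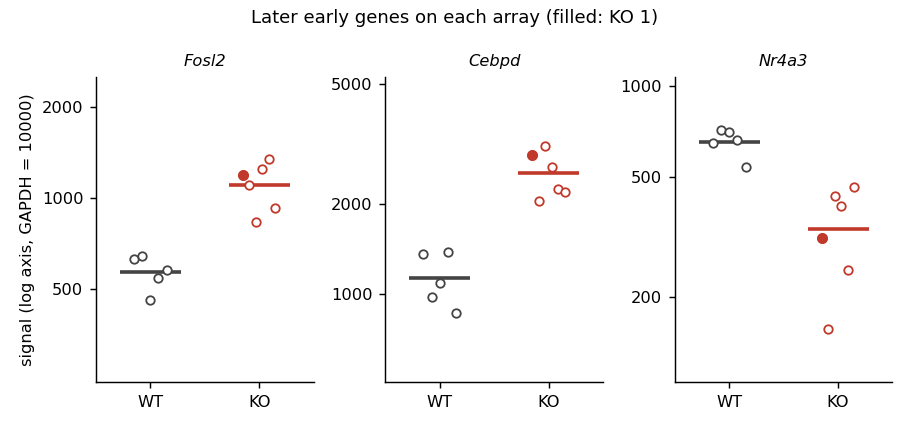
Signal (log axis, GAPDH set to 10000) of Fosl2, Cebpd and Nr4a3 on each wild type and Bcl11b KO array. Lines are group means and the filled circle is KO 1. The groups do not overlap for any of the 3 genes, and KO 1 is not the highest KO array for any of them.

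The feedback inhibitors, phosphatases, Sprouty proteins, EGR corepressors and RNA-decay factors that end the response, showed 0 calls among 17 genes (median change 0.11). The closest by p were Dusp2, a phosphatase of MAP kinases (-0.36 ± 0.17; limma, adjusted p = 0.717), and Errfi1, an inhibitor of the EGF receptor (0.31 ± 0.16; limma, adjusted p = 0.785). Of 27 upstream kinases and transcription factors, 23 were tested and 0 were called (median change 0.0047). Camk2a, a calcium-dependent kinase (-0.41 ± 0.17; limma, adjusted p = 0.583), and Mef2c, an activity-regulated transcription factor (0.33 ± 0.18; limma, adjusted p = 0.814), were closest by p. Over all tested probe sets 0.455% were called, so that 0 calls in lists this short say little. KO 1 was the highest array for 12 of the 31 later genes, 7 of the 17 feedback inhibitors and 4 of the 23 upstream genes. It was the highest for 10.2% of all tested probe sets, and these counts are a description of lists chosen with earlier results known. The summed signal of the feedback inhibitors was 27781 on KO 1, 18817 at the lowest of the KO arrays and 17774 to 23518 in wild type.

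KO 1 was also at the end of the range in other measures, by small margins in the first 2. Its GAPDH 3'/5' ratio was the lowest of all 11 arrays (1.82), close to KO 4 (1.87) and WT 3 (1.88). Its heat shock mean was the highest (11.69), close to KO 6 (11.65), and its summed heat shock signal (56486) lay within the other KO arrays (40410 to 59026). Its Bcl11b signal of 1250 was the highest among the KO arrays, below the lowest wild type array at 2694. Its median signal (75.2) and its poly-A control level (8.18 on the log2 scale) lay within the range of the others. Its summed signal of the 9 mature OSN markers (10527) lay above the other KO arrays (7626 to 9136) and below every wild type array, while those of the other 7 cell type lists lay within the range of the other KO arrays. With group means subtracted, the mean of the mature OSN markers had an r of 0.88 with the mean of the 10 immediate early genes over the 11 arrays, and of 0.83 without KO 1, given as a description with no test. Lists other than cell types gave 0.89 (later genes), 0.78 (feedback inhibitors), 0.62 (heat shock genes) and 0.49 (upstream genes). Without KO 1 these lists gave 0.79, 0.80, 0.53 and 0.66 in the same order. Next among the cell types came the immature OSN markers (0.64, and 0.64 without KO 1), and the other 6 lists gave 0.021 to 0.42, with endothelial markers at 0.65 without KO 1. Whether any of these had a part in the levels of the immediate early genes on KO 1 was not tested.

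The genes most like the 10 members were sought among 11451 genes with a mean signal of at least 100, by r with the members' mean over the 11 arrays after subtraction of the group means. The first 8 were Smc4, a condensin subunit (0.97), Ccn1, a matricellular early response protein (0.95), Oma1, a mitochondrial protease (0.94), Dusp6, a phosphatase of ERK (0.94), Neurod1, a neuronal basic helix-loop-helix factor (0.94), Tle3, a Groucho corepressor (0.94), Tmtc2 (0.94) and Efr3b (0.93). Of these, Ccn1 and Dusp6 stood on the lists of later genes and of feedback inhibitors. Ccn1 read 3243 on KO 1 and 905 to 1710 on the other 10 arrays, and Dusp6 read 610.8 on KO 1 and 320.1 to 470.2 on the others. Without KO 1 the r of the 8 genes was 0.85 to 0.92, lowest for Ccn1 and highest for Smc4 and Tle3. The 8 were picked by their r over arrays that include these 10, so that a high r here is no separate support. Between KO and wild type Neurod1 rose by 0.66 ± 0.13 (limma, adjusted p = 0.0214) on this probe set and did not pass on its other one (0.69 ± 0.16, adjusted p = 0.0694), and the other 7 did not pass (adjusted p 0.818 or higher).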

How the data were processed

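RNA of whole MOE was labelled in 2 cycles by the authors and hybridized to Mouse Genome 430 2.0 arrays, as the methods and labels state. The deposited values are intensities on a linear scale, 1 per probe set and array, which the authors scaled to GAPDH in GCOS (version not given in the sources used here). A change in GAPDH itself would therefore move every other value. Control probe sets (64) and probe sets with a mean signal under 20 were left out, which left 33662 of 45101. KO and wild type were compared on log2(signal + 16) without covariates, by lmFit and trended eBayes of limma 3.58.1 under R 4.3.3. P-values were adjusted by Benjamini-Hochberg over all tested probe sets at a threshold of 0.05. The log2 changes understate those of dim probe sets.

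Each gene was represented by its brightest tested probe set. Relations across arrays were tested with 100000 permutations and array measures with exact permutation tests (462 divisions, smallest p 0.00216). Sequences came from RefSeq promoters of GRCm38.p6. The build behind the array annotation is not given in the sources used here. Groups, replicates and sex came from the labels, and the signals of sex-linked genes fitted the sex label of all 11 arrays. Precision is limited by how few arrays there are, and p-values measure the spread between preparations, since the labels give no litters. The named genes were Bcl11b, all probe sets of the members, the 8 genes most like the members and, from each other list, the 2 genes of smallest p. Those of the 6 marker lists without a call are given only as that count, apart from Krt15. Maff, Nr4a3 and Krt15 were named after their values were seen. The members and lists were chosen with earlier results of these data known. Alternatives were other scalings, pseudocounts of 1 and 64, other filters, eBayes without trend, array weights, males only, a replicate block, a covariate (sex, poly-A set or GAPDH ratio), each poly-A set alone, all probe sets of a gene averaged, and leaving out each array or both KO arrays of highest GAPDH ratio.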

Additional observations from a re-analysis of the deposited data

Results flagged for a closer look

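Of the values on the arrays, 2 stood far from the rest of their group, among 38 groups of values tested in this way, of which chance flags about 1 in 20. Junb was highest on KO 1 (signal 298), where the gap to the next KO array made up 0.63 of the range of the KO arrays. The heat shock mean was lowest on KO 3 (10.9 on the log2 scale), where the gap to the next KO array also made up 0.63 of the range.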

How the results depend on the processing

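The number of calls over all probe sets, 153, was 85 to 213 when 1 array was left out, 293 after quantile normalization, 319 with hybridization controls as the scale, 345 with array weights, 284 without both KO arrays of highest GAPDH ratio, and 31 and 39 within the arrays of higher and lower poly-A controls, where fewer arrays enter. Calls higher in KO were 53.6% of all, and 48.4%, 41% and 18.2% with the array median, quantile and hybridization control scalings, and over all probe sets the median change was -0.12 with the last of these. The count of member calls was 0, or 0 to 1 with 1 array left out, and 1 (Jun) with array weights, with the GAPDH ratio as a covariate and without both KO arrays of highest ratio. The replicate numbers did not pair the samples (correlations of deviations -0.28 to 0.0085), and with the replicate block the count of calls was 91 and the median pairwise r 0.73. The median r was 0.14 within the arrays of higher poly-A controls and 0.24 to 0.54 with 1 array left out. Pairs past the threshold numbered 2 in the main analysis, 9 with a mean signal of at least 100 (15 pairs), 8 in males only, 0 within either poly-A set and 0 to 5 with 1 array left out (0 without KO 1, 1 without WT 4, 4 without KO 3, 5 without KO 6). Relations with array measures numbered 3, and 1 after quantile normalization, 0 within either poly-A set and 2 to 4 with 1 array left out.

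Uncalled changes close to 0 turned sign as follows. Ier2 was -0.0037, -0.012 and -0.14 with the median, quantile and hybridization control scalings, the last also turning Junb to -0.046 and the dimmer Egr3 probe set to -0.040. Egr1, Egr3 and Nr4a1 were 0.21, 0.016 and 0.0065 with array weights, 0.14, 0.042 and 0.14 in males only and with sex as a covariate, and 0.34, 0.0023 and 0.086 without both KO arrays of highest ratio, and the dimmer Egr3 probe set was -0.12 with array weights and -0.13 in males only and with sex. Egr1 and Nr4a1 were 0.062 and 0.015 with the GAPDH ratio, and Nr4a1 was 0.0071 with the replicate block. Within the arrays of higher poly-A controls Fos was -0.091, Junb -0.26 and the r of Nr4a1 with Ier2 -0.76. Within those of lower controls Nr4a1 was 0.030 and the dimmer Egr3 probe set -0.040.

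With 1 array left out, the change of Egr1 was -0.22 to 0.15, of Nr4a1 -0.16 to 0.078, of Arc -0.057 to 0.39, of Junb -0.034 to 0.23, of Ier2 -0.081 to 0.17 and of the dimmer Egr3 probe set -0.055 to 0.27. KO minus wild type was then -1.6 to 5.67 for the median signal of the arrays and -0.0618 to 0.112 for the GAPDH ratio. The GAPDH ratio itself, KO minus wild type, was -0.0421 in males only. Fosl2 and Cebpd kept their calls in 26 and 27 of 28 alternatives (adjusted p = 0.240 and 0.0782 within the arrays of higher poly-A controls, and 0.162 for Fosl2 within those of lower ones), and Nr4a3 passed in 13 of 28. The causes of these shifts were not tested beyond the number of arrays or genes each setting leaves. Fosb, Egr2, Egr3 and Arc had mean signals under 100, which limits what can be seen of them.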
